A study of Mus musculus with 6 samples.

Results

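Transcripts of 10 enzymes that make bile acids from cholesterol and conjugate them were followed in livers of mice with hepatocyte deletion of Prox1 and of WT mice. The enzymes were taken by gene symbol from a table of 29667 genes, and all 10 were found and passed the filter on low counts that left 14843 genes for testing. RNA was sequenced from 3 Prox1-cKO liver samples (Alb-Cre; Prox1 f/f) and from 3 WT liver samples (Prox1 f/f). In Prox1-cKO, Cre under the albumin promoter deletes floxed Prox1 in hepatocytes, and the study calls the knockout liver specific. Both groups carry the floxed alleles, and WT lacks Cre. The sources used here do not state how old or of which sex the sampled mice were, when in the day tissue was taken, which exons were floxed, or whether these samples belonged to the chemically induced liver cancer model that the study ran in the same genotypes. The study describes its replicates as biological.

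Bile acids are made in hepatocytes. In the classic pathway CYP7A1 hydroxylates cholesterol first, and CYP8B1 then adds the 12-alpha hydroxyl group that turns the product towards cholic acid. In the alternative pathways the side chain is oxidized first. CYP27A1 starts the main one, in which CYP7B1 adds the 7-alpha hydroxyl group, and CYP39A1 adds that group to 24-hydroxycholesterol, the product of CYP46A1. AKR1D1 and a 3-alpha-hydroxysteroid dehydrogenase reduce the ring, AMACR turns the side chain to the configuration that peroxisomes can shorten, and SLC27A5 and BAAT join bile acids to CoA and then to taurine or glycine. PROX1 is known as a corepressor of the nuclear receptors HNF4A and NR5A2, and repression of CYP7A1 by PROX1 has been described in human liver cells.

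The promoters of the gene that rose most among the 10 enzymes and of the pathway gene that fell most are shown because both hold the same rare word close to the transcription start. They run from 250 bases before to 50 bases after the start, 5′ to 3′ on the strand of the gene, as given by RefSeq for GRCm38.p6, where 4 of the 10 enzymes had an entry. Cyp8b1 lies at chr9:121916256-121916555 (minus strand) and Cyp2c70 at chr19:40187237-40187536 (minus strand). Capitals mark CAAAGTCCA, a word found in HNF4A sites, CAAGGNCA, a word found in NR5A2 sites, and TATAAA, each searched on both strands. Of the pathway genes beyond the 10 enzymes, only Cyp2c70 was searched by name.
Cyp8b1: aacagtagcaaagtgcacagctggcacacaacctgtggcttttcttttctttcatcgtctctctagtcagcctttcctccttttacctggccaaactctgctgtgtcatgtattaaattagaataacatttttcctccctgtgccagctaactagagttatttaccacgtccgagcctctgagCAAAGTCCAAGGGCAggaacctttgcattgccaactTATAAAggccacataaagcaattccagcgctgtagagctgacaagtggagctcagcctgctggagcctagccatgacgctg
Cyp2c70: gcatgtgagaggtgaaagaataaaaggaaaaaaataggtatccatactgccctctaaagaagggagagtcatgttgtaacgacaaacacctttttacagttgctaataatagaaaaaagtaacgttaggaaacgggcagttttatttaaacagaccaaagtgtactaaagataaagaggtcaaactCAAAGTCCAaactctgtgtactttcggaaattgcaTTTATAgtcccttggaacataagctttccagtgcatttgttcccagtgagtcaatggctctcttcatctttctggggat
CAAAGTCCA starts 67 bases before the start of Cyp8b1 and 64 bases before that of Cyp2c70, and 0.475% of the 32851 promoters in the table hold it. In Cyp8b1 its last bases overlap CAAGGNCA, which starts 60 bases before the start and is held by 6.71% of promoters. TATAAA, held by 13.6%, was found in Cyp8b1 and, on the other strand, in Cyp2c70. Of the other 3 enzymes with an entry, Akr1c6 held CAAGGNCA and TATAAA, and Cyp27a1 and Akr1d1 held none of the 3 words. AGGTCA, the short word bound by many nuclear receptors, held by 16.3% of promoters and left in lower case, was found in Cyp2c70 and, on the other strand, at 2 places in Akr1d1. A match is a description of letters and not evidence of binding.

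The libraries held 19036950 to 20537091 reads in genes in Prox1-cKO and 18066205 to 19921674 in WT. Levels are given as CPM, reads scaled to a common library total with TMM factors. Genotypes were tested with the edgeR quasi-likelihood model, all 14843 genes entered the adjustment, and a gene was called at an adjusted p under 0.05. Prox1 itself was 188 ± 20.9 CPM in Prox1-cKO and 708 ± 141 CPM in WT (SD, n = 3 each), with a log2 fold change of −1.91 (adjusted p = 6.05e-04). Its exons share 133 bp with an antisense gene, and the strand of the counting is not given. The hepatocyte markers summed to 152770 to 180167 CPM in Prox1-cKO and 105982 to 117379 CPM in WT. Alb alone held 73981 to 94061 CPM of these sums in Prox1-cKO and 50085 to 67296 CPM in WT. Alb was not called (log2 fold change 0.50, adjusted p = 0.254 from edgeR). Of these markers, 9 of 20 rose and 1 fell, against 14.1% and 20.2% of all genes. Of the markers of other cells, 7 of 9 tested bile duct genes, 10 of 12 macrophage genes, 7 of 11 stellate cell genes, 10 of 12 genes of dividing cells, 2 of 12 endothelial genes and 2 of 8 lymphocyte genes fell and none rose. The endothelial and lymphocyte counts were near the share of all genes called lower, 20.2%. The summed levels of Prox1-cKO samples were 52.1 to 77.4 CPM for bile duct, 571 to 774 for macrophages, 371 to 428 for stellate cells, 50.8 to 59.1 for dividing cells, 588 to 947 for endothelium and 7.04 to 8.18 for lymphocytes. Those of WT samples were 155 to 227 CPM for bile duct, 650 to 1630 for macrophages, 579 to 687 for stellate cells, 105 to 241 for dividing cells, 715 to 972 for endothelium and 10.3 to 23.9 for lymphocytes. No marker of these lists was without reads in either group. In bulk liver, more hepatocytes and more RNA per hepatocyte cannot be told apart, and the part of cell makeup in the results below was not tested. WT replicate 3 stood apart, with a correlation of log CPM of 0.969 and 0.975 to the other WT samples, which had 0.987 with each other.

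Of the 10 enzymes, Cyp8b1, Cyp39a1, Slc27a5 and Baat rose in Prox1-cKO samples and none fell. Of all genes tested, 14.1% were called higher and 20.2% lower, 34.3% in either direction. For Cyp8b1, Cyp39a1, Slc27a5, Baat and Cyp7b1, every Prox1-cKO sample was above every WT sample, a pattern seen in 23.3% of all genes, and no enzyme had the opposite pattern, seen in 26.6% (49.9% in either direction). The median log2 fold change of the 10 was 0.58, against −0.02 for all genes tested. Cyp8b1 and Cyp39a1 were called in each of the 15 other settings tried, while Slc27a5 and Baat were not called when libraries were scaled by their totals or by the hepatocyte markers. These scalings shifted all log2 fold changes by a median of −0.41 and −0.59, and with either one 2 enzymes were called higher. The count called higher was also 2 without WT replicate 1, WT replicate 2 or Prox1-cKO replicate 1, and 6 without WT replicate 3. With the hepatocyte markers, Amacr was called lower (log2 fold change −0.63, adjusted p = 0.0181 from edgeR), as were 7983 of the 14843 genes tested.

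**Figure D1:**
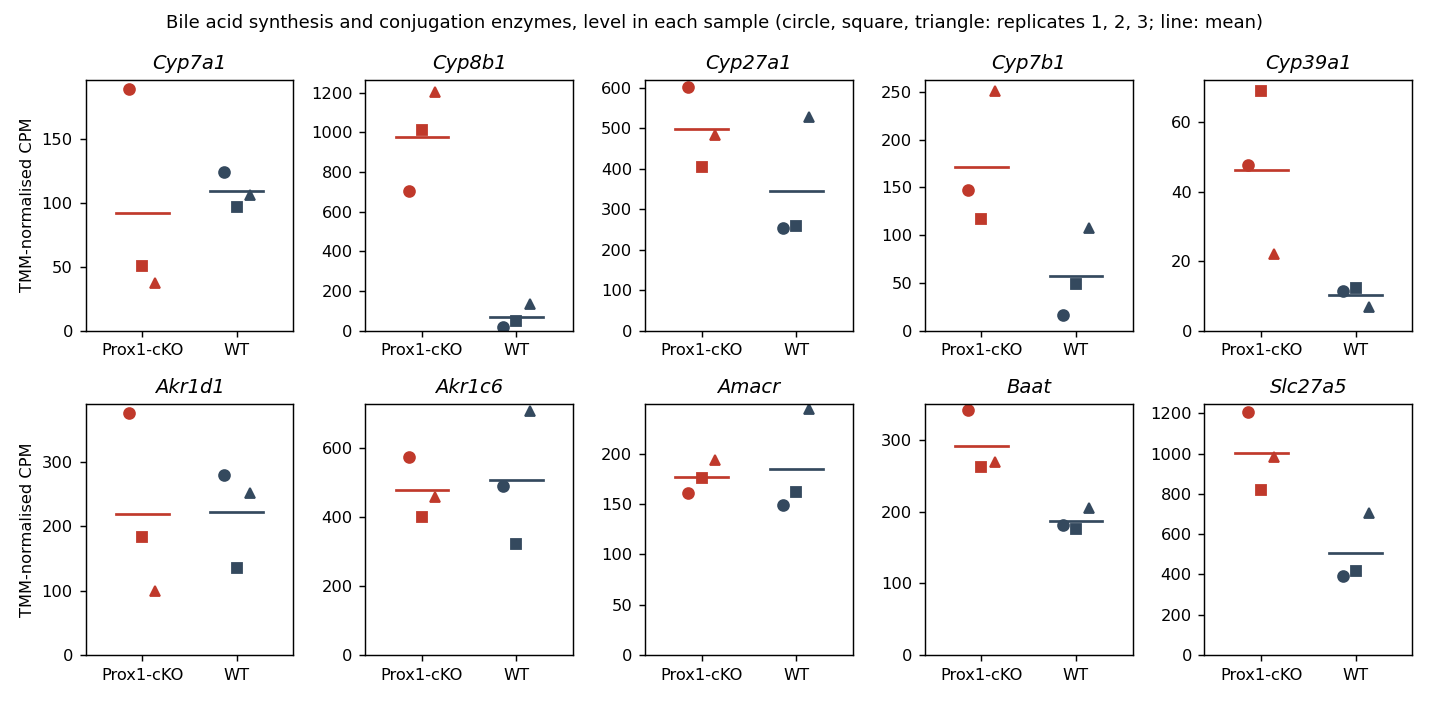
Level of each of the 10 enzymes in TMM-normalised CPM (vertical axes, linear, from 0) in 3 Prox1-cKO and 3 WT samples, with circles, squares and triangles for replicates 1, 2 and 3 and a line for the mean. Cyp8b1 was 702 to 1205 CPM in Prox1-cKO and 18.6 to 132 CPM in WT, whereas Cyp7a1 spread from 37.0 to 189 CPM within Prox1-cKO and overlapped WT.

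Cyp7a1, which encodes the rate-limiting hydroxylase of the classic pathway, did not pass the test. The gene (ENSMUSG00000028240) lies on chromosome 4 from 6265612 to 6275633 (GRCm38, GENCODE M21). Its level was 189, 50.5 and 37.0 CPM in Prox1-cKO samples, against 124, 97.1 and 106 CPM in WT samples. Prox1-cKO replicate 1 was thus above every WT sample, and replicates 2 and 3 were below every WT sample. The log2 fold change was −0.25 (95% interval −1.49 to 1.003, adjusted p = 0.754). Without Prox1-cKO replicate 1 it was −1.31 (standard error 0.20, adjusted p = 6.91e-03) and called lower, and without Prox1-cKO replicate 2 or 3 it was 0.06 or 0.14 and not called. The spread within Prox1-cKO was 5.11-fold from lowest to highest, against 1.28-fold in WT.

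Cyp8b1, the sterol 12-alpha-hydroxylase, showed the largest change of the 10 enzymes. It is a gene of 1 exon on chromosome 9 from 121914356 to 121916305 (ENSMUSG00000050445). Its level was 702, 1013 and 1205 CPM in Prox1-cKO samples, against 18.6, 47.8 and 132 CPM in WT samples. The lowest Prox1-cKO sample was well above the highest WT sample. The log2 fold change was 3.88 (standard error 0.67, 95% interval 2.34 to 5.42, adjusted p = 4.17e-03), or 14.7-fold, which ranked 21 of the 14843 genes. WT samples differed among themselves by 7.11-fold, and without WT replicate 3 the log2 fold change was 4.89.

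In the alternative pathway, the side chain hydroxylase gene Cyp27a1 (chromosome 1, 74713574 to 74737892) was 603, 405 and 485 CPM in Prox1-cKO samples, against 252, 259 and 528 CPM in WT samples. WT replicate 3 lay within the Prox1-cKO range, and the log2 fold change of 0.52 did not pass (95% interval −0.20 to 1.24, adjusted p = 0.230). Without that sample it was 0.98 and called (adjusted p = 7.74e-03), and with scaling by hepatocyte markers it was −0.04 and not called.
Cyp7b1 (chromosome 3, 18071950 to 18243338), which encodes the main oxysterol 7-alpha-hydroxylase, was 147, 117 and 251 CPM in Prox1-cKO samples, against 16.8, 48.4 and 107 CPM in WT samples. The groups did not overlap, but the nearest samples of both groups were close. The log2 fold change was 1.58 (95% interval 0.22 to 2.95, adjusted p = 0.0718 from edgeR) and did not pass after adjustment. It passed in 5 of 15 other settings, among them the fit without WT replicate 3, where it was 2.42 (adjusted p = 7.62e-03).
Cyp39a1 (chromosome 17, 43667425 to 43751431), which encodes a 7-alpha-hydroxylase of 24-hydroxycholesterol, rose in Prox1-cKO samples. Its level was 47.6, 69.1 and 22.1 CPM in Prox1-cKO samples, against 11.4, 12.1 and 6.86 CPM in WT samples. The lowest Prox1-cKO value was above the highest WT value. The log2 fold change was 2.19 (standard error 0.40, adjusted p = 5.46e-03), or 4.56-fold, and 1.59 when libraries were scaled by the hepatocyte markers.

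**Figure D2:**
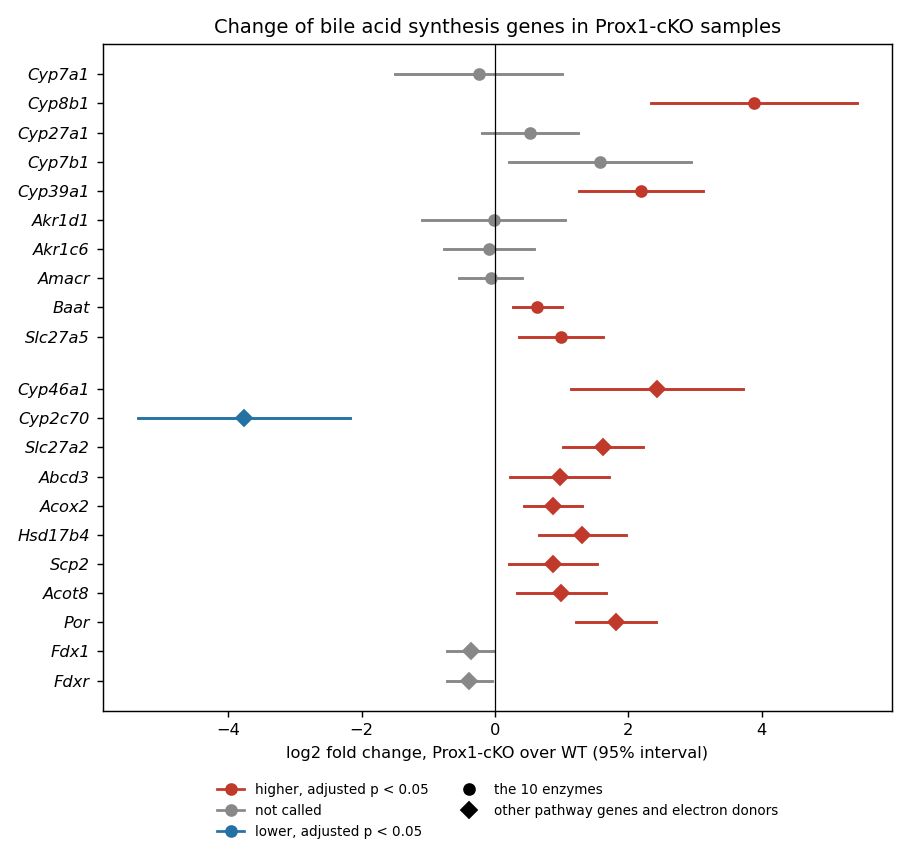
Log2 fold change of Prox1-cKO over WT (horizontal axis) with its 95% interval for the 10 enzymes (circles) and for other genes of the pathway and the electron donors of P450 enzymes (diamonds), in red where called higher, blue where called lower and grey where not called at an adjusted p under 0.05 (edgeR). Cyp8b1 at 3.88 and Cyp2c70 at −3.76 lie at the opposite ends.

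The enzymes of the ring and of the side chain isomer did not pass. Akr1d1 (chromosome 6, 37530173 to 37568815), the 5-beta-reductase of steroids, was 377, 183 and 99.1 CPM in Prox1-cKO samples, against 280, 135 and 253 CPM in WT samples. Its Prox1-cKO samples were ordered as for Cyp7a1, with replicate 1 highest and replicate 3 lowest, and the groups overlapped. The log2 fold change was −0.02 (95% interval −1.10 to 1.06).
Akr1c6 (chromosome 13, 4434306 to 4457877), an aldo-keto reductase of steroids, was 574, 399 and 457 CPM in Prox1-cKO samples, against 489, 322 and 707 CPM in WT samples. All Prox1-cKO values lay within the WT range, with a log2 fold change of −0.09 (95% interval −0.76 to 0.58). Of its 50-base words, 1.39% also occur in transcripts of Akr1c20, while no other of the 10 enzymes shared any with another gene.
Amacr (chromosome 15, 10981756 to 10996626), the racemase of branched acyl-CoAs, was 161, 176 and 194 CPM in Prox1-cKO samples, against 149, 162 and 245 CPM in WT samples. These also lay within the WT range, with a log2 fold change of −0.06 (95% interval −0.54 to 0.41), the narrowest interval of these 3 genes.

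Both conjugation enzymes rose. Slc27a5 (chromosome 7, 12988346 to 12998192), the bile acyl-CoA synthetase, was 1205, 818 and 985 CPM in Prox1-cKO samples, against 394, 415 and 703 CPM in WT samples. The groups did not overlap, and the log2 fold change was 0.99 (standard error 0.27, adjusted p = 0.0253), or 1.99-fold. The call was lost without WT replicate 1 (adjusted p = 0.0781), WT replicate 2 (0.0877), Prox1-cKO replicate 1 (0.0783) or Prox1-cKO replicate 3 (0.0615) and with scaling by library totals (log2 fold change 0.59, adjusted p = 0.0716) or hepatocyte markers (0.42, adjusted p = 0.129).
Baat (chromosome 4, 49489422 to 49506557), which joins bile acyl-CoA to the amino acid, was 342, 263 and 269 CPM in Prox1-cKO samples, against 181, 176 and 206 CPM in WT samples. Replicates were closer to each other than for most of the enzymes, at a coefficient of variation of 15.0% in Prox1-cKO and 8.49% in WT. The log2 fold change was 0.64 (standard error 0.16, adjusted p = 0.0190), or 1.55-fold. The call was lost without WT replicate 1 (adjusted p = 0.0626), WT replicate 2 (0.0694) or Prox1-cKO replicate 1 (0.0584), and scaling by library totals or hepatocyte markers left log2 fold changes of 0.22 and 0.04 (adjusted p = 0.224 and 0.815).

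**Figure D3:**
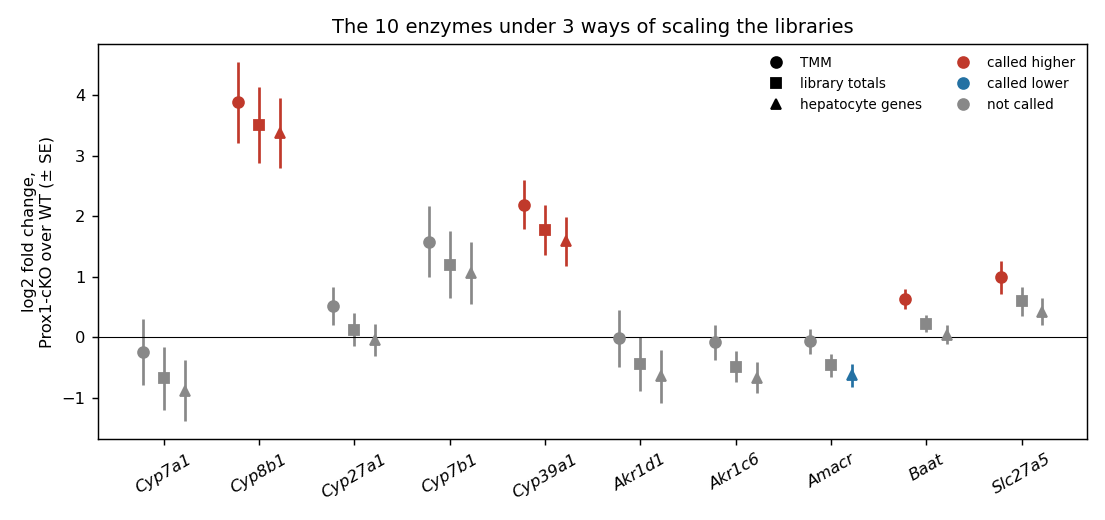
Log2 fold change of Prox1-cKO over WT with its standard error (vertical axis) for the 10 enzymes when libraries were scaled by TMM (circles), by their totals (squares) or by the 20 hepatocyte markers (triangles), in red or blue where called higher or lower and grey where not called. Cyp8b1 and Cyp39a1 stayed called under all 3, Baat and Slc27a5 under TMM only, and Amacr was called lower with the hepatocyte markers only.

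Levels of different genes were set side by side as CPM per kb of exon. In Prox1-cKO samples Cyp8b1 ranked 1 of the 10, at 499 ± 130 CPM per kb, and in WT samples it ranked 7, at 33.9 ± 30.2 CPM per kb (SD, n = 3 each). Below it in Prox1-cKO were Slc27a5 at 411 ± 79.6, then Akr1c6 at 234 ± 43.8 and Cyp27a1 at 229 ± 45.9 CPM per kb, where Cyp8b1 did not differ from Slc27a5, nor Akr1c6 from Cyp27a1, beyond their spread. In WT the highest were Akr1c6 at 249 ± 94.96, Slc27a5 at 207 ± 70.7 and Cyp27a1 at 159 ± 72.3 CPM per kb, which did not differ from each other beyond their spread. Baat at 150 ± 22.6, Cyp7b1 at 79.4 ± 32.4, Akr1d1 at 75.9 ± 49.2 and Amacr at 67.9 ± 6.36 CPM per kb followed in Prox1-cKO, and in WT the same 4 genes were at 96.6 ± 8.20, 26.5 ± 21.2, 77.0 ± 26.8 and 71.0 ± 19.97 CPM per kb. Cyp7a1 ranked 9 in both genotypes, at 22.1 ± 20.2 CPM per kb in Prox1-cKO and 26.2 ± 3.31 in WT. Cyp39a1 ranked 10 in both, at 15.2 ± 7.71 CPM per kb in Prox1-cKO and 3.31 ± 0.932 in WT.

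Ratios of a pair of enzymes within a library do not depend on how libraries are scaled. The log2 ratio of Cyp8b1 over Cyp7a1 reads was 1.89, 4.33 and 5.03 in Prox1-cKO samples, against −2.74, −1.02 and 0.32 in WT samples. Cyp8b1 thus had 3.72 to 32.6 reads for each read of Cyp7a1 in Prox1-cKO and 0.150 to 1.24 in WT. The groups did not overlap, and the mean log2 ratio was 3.75 ± 1.64 in Prox1-cKO and −1.15 ± 1.53 in WT (SD, n = 3 each), a difference of 4.90. The log2 ratio of Cyp39a1 over Cyp7a1 did not overlap either, at −1.99 to 0.45 in Prox1-cKO and −3.95 to −3.00 in WT. For both pairs the exact two-sided permutation test gave p = 0.1, the smallest that 3 against 3 allows, and the adjusted p over 6 ratios was 0.24. The log2 ratios of Cyp7b1 over Cyp7a1, Cyp27a1 over Cyp7a1, Akr1c6 over Akr1d1 and Baat over Slc27a5 overlapped between genotypes, with differences of 2.50, 1.21, 0.13 and −0.40.

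**Figure D4:**
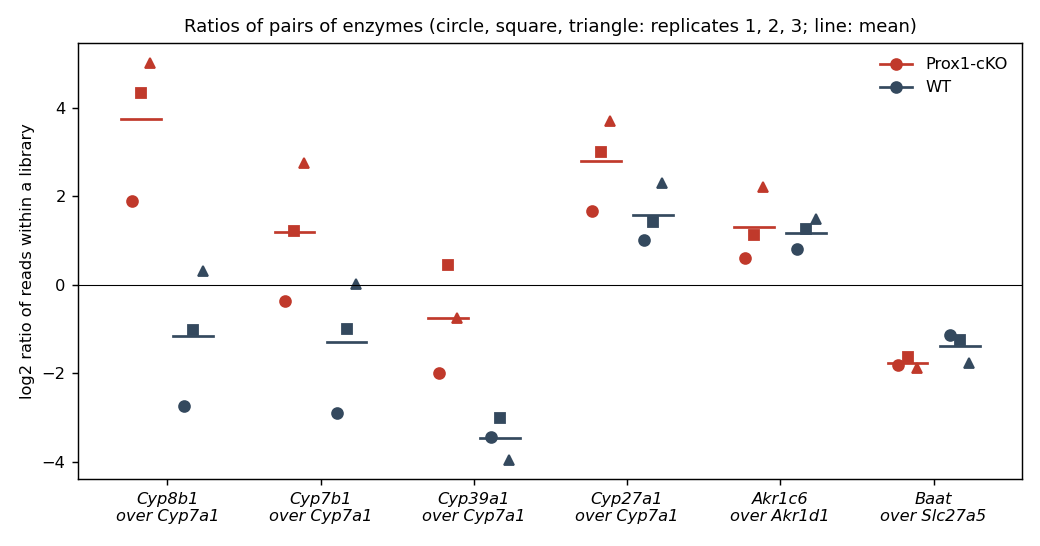
Log2 ratio of the reads of 2 enzymes within each library (vertical axis) for 6 pairs, Prox1-cKO in red left of WT in dark blue, with circles, squares and triangles for replicates 1, 2 and 3 and lines for means. Cyp8b1 over Cyp7a1 was above 0 in all 3 Prox1-cKO samples and below 0 in 2 of 3 WT samples.

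Of 10 further genes of the pathway, 1 was not matched and Ch25h, with no read in Prox1-cKO, was too low to test. Of the 8 tested, 7 rose and 1 fell, against 14.1% and 20.2% of all genes. The count that rose was 3 with library totals or the hepatocyte markers, where of all genes 725 and 536 rose. It was 4 with at least 10 counts required, where Cyp46a1, with 4 reads in WT replicate 2, was not tested. It was also 4 without WT replicate 1 or 2 or Prox1-cKO replicate 2 or 3. The gene that fell was Cyp2c70, which in mice makes muricholic acids, at 92.2, 17.04 and 17.6 CPM in Prox1-cKO samples, against 530, 446 and 737 CPM in WT samples. Its log2 fold change was −3.76 (standard error 0.69, adjusted p = 5.41e-03), it was called in all 15 other settings, and without Prox1-cKO replicate 1 it was −5.03.
Peroxisomes shorten the side chain. Slc27a2, a very-long-chain acyl-CoA synthetase, was 1995 ± 314 CPM in Prox1-cKO and 650 ± 181 CPM in WT (log2 fold change 1.62), and Hsd17b4, the bifunctional enzyme of the side chain, was 835 ± 149 CPM in Prox1-cKO and 336 ± 127 CPM in WT (log2 fold change 1.31). Both were called in all 15 other settings. Slc27a2 shares 419 bp of exon with a gene on the other strand, and the strand of the counting is not given. Acox2, the oxidase of this route, Abcd3, a peroxisomal transporter, Scp2, its thiolase, and Acot8, a thioesterase, rose by 0.87, 0.97, 0.87 and 0.995 on the log2 scale, and the calls of all 4 were lost with library totals (adjusted p = 0.0723, 0.139, 0.164 and 0.121) and with the hepatocyte markers. Those of Abcd3, Scp2 and Acot8 were lost also without WT replicate 1 or 2 or Prox1-cKO replicate 2 or 3, and those of Abcd3 and Scp2 without Prox1-cKO replicate 1 and with at least 10 counts required, and that of Scp2 with limma. Cyp46a1, a cholesterol 24-hydroxylase known from brain, rose at a low level, 2.52 ± 1.26 CPM in Prox1-cKO and 0.474 ± 0.324 CPM in WT, with a log2 fold change of 2.43 that was 1.22 with limma on CPM plus 1 and 3.05 without WT replicate 3.
Por, which passes electrons to P450 enzymes of the endoplasmic reticulum such as CYP7A1 and CYP8B1, rose to 1053 ± 88.1 CPM in Prox1-cKO, against 299 ± 104 CPM in WT (log2 fold change 1.81, adjusted p = 2.02e-03). Fdx1 and Fdxr, which serve mitochondrial P450 enzymes such as CYP27A1, had log2 fold changes of −0.36 and −0.38 and did not pass (adjusted p = 0.105 and 0.0814), though both were called lower with library totals (adjusted p = 5.87e-03 and 5.22e-03) and with the hepatocyte markers (2.93e-03 and 1.82e-03), Fdx1 without WT replicate 3 (0.0407) and Fdxr without Prox1-cKO replicate 2 (0.0413).

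Of 16 regulators of bile acid synthesis, 9 rose and 1 fell, against 14.1% and 20.2% of all genes. With library totals or the hepatocyte markers 3 regulators rose and 4 fell, where of all genes 725 rose and 6060 fell with library totals and 536 rose and 7983 fell with the hepatocyte markers. Without WT replicate 1 or 2 the count of regulators that rose was 5. The xenobiotic receptor gene Nr1i2, the FGF coreceptor gene Klb and Ppara, the fatty acid receptor gene, rose by 1.05, 1.19 and 1.31 on the log2 scale and were called in all 15 other settings. Hnf4a, whose product activates Cyp7a1 and Cyp8b1, was 845, 931 and 1213 CPM in Prox1-cKO samples, against 475, 434 and 656 CPM in WT samples. Its log2 fold change was 0.93 (adjusted p = 0.0170), and its call was lost with library totals (adjusted p = 0.0666), with the hepatocyte markers (0.170) and without WT replicate 1 (0.0556), WT replicate 2 (0.0645) or Prox1-cKO replicate 3 (0.0531). Nr1h4, the bile acid receptor gene, and Fgfr4, the receptor of the intestinal FGF signal, rose by 0.53 and 0.60, and both calls were lost with library totals (adjusted p = 0.457 and 0.190) and with the hepatocyte markers (log2 fold change −0.06 for Nr1h4, adjusted p = 0.731, and adjusted p = 0.965 for Fgfr4), that of Nr1h4 also without WT replicate 1 (0.0609).
Nr0b2, the corepressor induced by the bile acid receptor, was 44.7, 44.0 and 39.6 CPM in Prox1-cKO samples, against 34.4, 44.9 and 53.9 CPM in WT samples. All Prox1-cKO values lay within the WT range (log2 fold change −0.05, adjusted p = 0.826), but it was called lower with library totals (−0.46, adjusted p = 0.0418) and with the hepatocyte markers (−0.63, adjusted p = 6.43e-03). Nr5a2, whose product binds the Cyp7a1 and Cyp8b1 promoters, had a log2 fold change of 0.34 and did not pass (adjusted p = 0.177), was −0.06 with library totals and −0.24 with the hepatocyte markers, and was called higher without WT replicate 3 (adjusted p = 0.0188). Onecut1, a hepatocyte transcription factor gene, fell by 1.68 on the log2 scale, at 3.44, 2.84 and 4.08 CPM in Prox1-cKO samples, against 16.6, 10.2 and 6.35 CPM in WT samples.

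The spread between samples of 1 genotype was large for several enzymes. WT replicate 3 had the highest WT level for 7 of the 10 enzymes and Prox1-cKO replicate 1 the highest Prox1-cKO level for 6. The 4 Y-linked genes were present in every library, with Ddx3y at 75.5 CPM or more, and Xist was at 0.295 CPM or less. Every library thus had the pattern of male tissue, in both genotypes.

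Genes that differ between the sexes in adult mouse liver did not move one way. Of 11 genes of the male list 1 rose and 2 fell, against 14.1% and 20.2% of all genes. The list includes the 4 Y-linked genes, none of which was called with TMM. Cyp2d9, a P450 gene, rose by 1.05 on the log2 scale (adjusted p = 9.16e-03), a call lost with the hepatocyte markers (adjusted p = 0.0558). Mup20, a urinary protein gene, fell by 1.28 on the log2 scale (adjusted p = 5.46e-03) and was called in all 15 other settings. Cyp4a12a, another P450 gene, fell by 0.83 on the log2 scale (adjusted p = 0.0301), a call lost without WT replicate 2 (adjusted p = 0.0540), WT replicate 3 (0.0545), Prox1-cKO replicate 1 (0.102) or Prox1-cKO replicate 2 (0.110). With the hepatocyte markers none of the male list rose and 6 fell, where of all 14843 genes 536 rose and 7983 fell. Without WT replicate 3, 4 of the list rose and 1 fell, where of all genes 2604 rose and 3468 fell. The list summed to 4020 to 5502 CPM in Prox1-cKO and 5006 to 7499 CPM in WT.
Of 5 tested genes of the female list 3 fell and none rose, against 20.2% and 14.1% of all genes. The count that rose was 1 without a filter, with DESeq2 or with the replicate number as a block. The 3 that fell were Cyp2a4, a P450 gene, Cux2, a transcription factor gene, and A1bg, with log2 fold changes of −9.84, −1.81 and −2.73. The count that fell was 1 without WT replicate 2 or without replicate 2 or 3 of Prox1-cKO, and also 1 when limma was run on CPM plus 1. It was 0 with at least 10 counts required in every library. There Cyp2a4, Cux2 and A1bg were not tested, as each had fewer reads in some Prox1-cKO library. The list summed to 2.48 to 9.62 CPM in Prox1-cKO and 28.3 to 1270 CPM in WT, where Cyp2a4 alone made up most of the sum in each sample. Cyp3a41a in Prox1-cKO and Sult3a1 in WT had no reads.
The plot of replicate spread sets Cyp8b1 and Cyp7b1 beside 3 sex-biased genes that were chosen after their values were seen, for their spread within WT. Slco1a1, an anion carrier gene higher in males, was 246, 254 and 327 CPM in Prox1-cKO samples, against 22.05, 29.2 and 200 CPM in WT samples. It did not pass (adjusted p = 0.116), but without WT replicate 3 it was called higher (adjusted p = 8.39e-05). Elovl3, a fatty acid elongase gene higher in males, was 92.5, 99.6 and 416 CPM in Prox1-cKO samples, against 1.68, 13.6 and 218 CPM in WT samples. It did not pass either (adjusted p = 0.463), and without WT replicate 3 it was called higher (adjusted p = 0.0107). Cyp2a4 was 0.875, 0.437 and 0.414 CPM in Prox1-cKO samples, against 1231, 323 and 24.1 CPM in WT samples. Within WT, replicate 3 was thus highest for Slco1a1 and Elovl3, as it was for Cyp8b1 and Cyp7b1, and lowest for Cyp2a4. The part of sex-biased expression in the results was not tested.

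**Figure D5:**
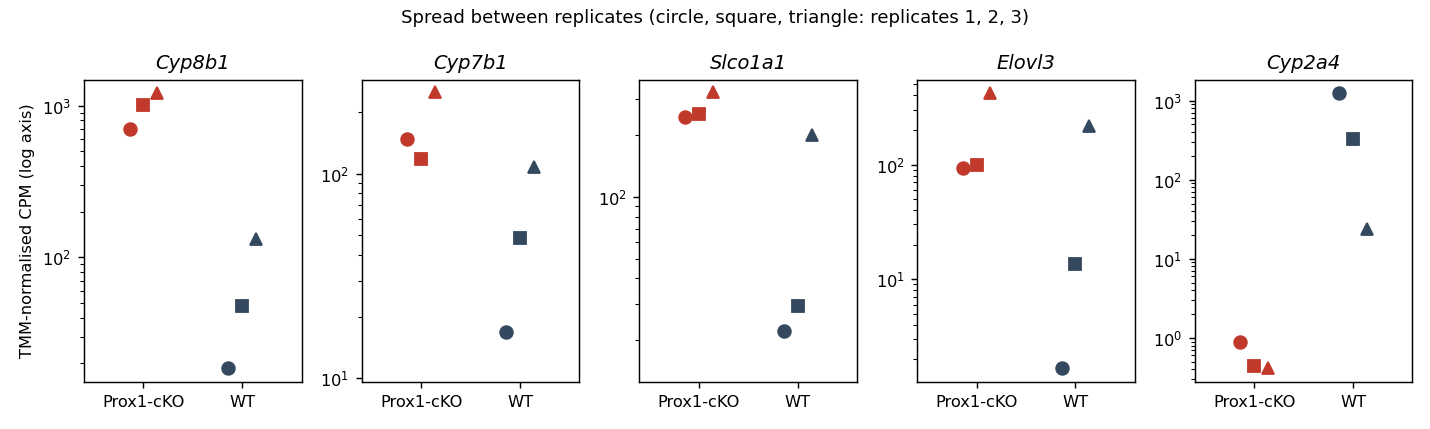
Level in TMM-normalised CPM (vertical axes, logarithmic) of Cyp8b1, Cyp7b1, Slco1a1, Elovl3 and Cyp2a4 in 3 Prox1-cKO and 3 WT samples, with circles, squares and triangles for replicates 1, 2 and 3. In WT the triangle (replicate 3) is highest in the first 4 panels and lowest for Cyp2a4, where WT runs from 24.1 to 1231 CPM.

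Cyp7a1 is also known to follow the daily clock, and the hour of sampling is not given. Of 15 clock genes, 6 rose and 1 fell, against 14.1% and 20.2% of all genes. The count that rose was 2 with library totals and 1 with the hepatocyte markers, where of all genes 725 and 536 rose. Hlf and Tef, which encode clock-controlled transcription factors, and Cry2, which encodes a clock repressor, rose by 0.91, 1.10 and 0.64 on the log2 scale (adjusted p = 1.05e-03, 0.0183 and 5.20e-03). The call of Hlf was lost with the hepatocyte markers (adjusted p = 0.0504), those of Tef and Cry2 with either scaling, and that of Tef also without Prox1-cKO replicate 1 (0.0545) or 2 (0.0635). Arntl, the gene of the clock activator BMAL1, was 15.1, 8.74 and 14.7 CPM in Prox1-cKO samples, against 4.10, 5.72 and 24.2 CPM in WT samples, and Nr1d1, the gene of a repressor of Arntl, was 35.4, 95.4 and 45.3 CPM in Prox1-cKO samples, against 41.6, 72.4 and 43.7 CPM in WT samples. Both overlapped between genotypes and did not pass (adjusted p = 0.839 and 0.769).
Ciart, another clock repressor gene, was 50.8, 33.4 and 20.3 CPM in Prox1-cKO samples, against 7.496, 4.63 and 0.508 CPM in WT samples. It was highest in replicate 1 and lowest in replicate 3 of Prox1-cKO, as Cyp7a1 and Akr1d1 were. In WT it was highest in replicate 1, where Cyp8b1 was lowest, and lowest in replicate 3, where Cyp8b1 was highest. Cyp7a1 and Akr1d1 did not share this order in WT, where both were lowest in replicate 2. The log2 fold change of Ciart was 3.03, and 3.73 without WT replicate 1. The gene that fell was Npas2, which encodes a partner of BMAL1, at 0.0625, 0.273 and 0.532 CPM in Prox1-cKO samples, against 1.23, 1.52 and 12.7 CPM in WT samples. Its log2 fold change was −4.10, and −2.19 without WT replicate 3, and its call was lost without Prox1-cKO replicate 1, 2 or 3 (adjusted p = 0.0813, 0.0848 and 0.0606) and with limma on CPM plus 1 (0.0644). The part of the clock in the results was not tested.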

How the data were processed

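The authors deposited raw read counts per gene for 6 liver libraries of RNA enriched with oligo(dT). The tools named in the submitters' notes are HISAT2 2.1.0 for one, HTSeq and DESeq for others, and the build named is GRCh38, a human assembly, although every gene identifier is a mouse one. The annotation release, strand and filters of the counting are not stated. A second deposited table of these libraries was named FPKM, but each column sums to the same round total as CPM would, and it was not used. The edgeR package (4.0.16, R 4.3.3) served for filterByExpr, TMM factors and a quasi-likelihood fit on genotype alone, with Benjamini-Hochberg adjustment across the genes that passed. Standard errors and 95% intervals follow from the quasi-likelihood statistic. Each fit was repeated with RLE factors, with library totals, with the geometric mean of 20 hepatocyte markers, unfiltered apart from genes lacking any read, with a minimum of 10 counts per library, with DESeq2 1.42.0, with limma 3.58.1 on log2 of CPM plus 1 or 0.1, with the replicate number as a block, and with each of the 6 libraries left out. Ratios within a library used 0.5 added to each count and an exact permutation test. Positions and exon lengths are from GENCODE M21 (GRCm38) and promoters from RefSeq (GRCm38.p6). All 10 enzymes are named, and of each other list up to 4 called genes with the smallest adjusted p plus genes with a role the text turns on; Cyp46a1, Abcd3, Scp2, Acot8, Onecut1, Npas2, Arntl, Nr1d1, Slco1a1, Elovl3, Mafg and Nr1h2 were named beyond this rule after their values were seen, and the alternatives for the clock and sex-biased lists were added after seeing the data. One regulator of the list is counted but not reported here by name. The enzymes and lists were chosen with earlier results of these data known. Plots were made in matplotlib 3.10.9 under Python 3.11.15.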

Additional observations from a re-analysis of the deposited data

How the results depend on the processing

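Of the 10 enzymes, 4 were called higher and none lower. The count called higher was 2 with library totals, 2 with the hepatocyte markers and 2 at an adjusted p under 0.01, and 2 to 6 when 1 library was left out. The count called lower was 1 with the hepatocyte markers and 0 to 1 when 1 library was left out. Of all genes, 725 were called higher and 6060 lower with library totals, 536 and 7983 with the hepatocyte markers, and 1201 to 2604 and 1999 to 3468 when 1 library was left out. Among genes not called with all 6 libraries whose value changed sign, leaving out 1 library gave log2 fold changes of −1.31 (called lower) to 0.14 for Cyp7a1, −0.65 to 0.34 for Akr1d1 (7.36e-05 with DESeq2), −0.32 to 0.25 for Akr1c6, −0.20 to 0.21 for Amacr, −0.20 to 0.13 for Nr0b2 and −8.40e-03 to 0.25 for Nr1h2. The log2 ratio of Akr1c6 over Akr1d1 differed by −0.32 to 0.48 when 1 library was left out. With the hepatocyte markers the log2 fold change was −0.043 for Cyp27a1, −0.057 for Nr1h4, −0.24 for Nr5a2, −0.47 for Nr1h2 and −0.078 for Mafg, and with library totals it was −0.061 for Nr5a2 and −0.30 for Nr1h2. Of these, Nr1h4 and Mafg were called higher with TMM. The cause of these changes was not tested. Samples with the same replicate number deviated together with correlations of 0.18, 0.08 and 0.17, each the highest for its library, which is a hint from the data and not from the design. With the replicate number as a block, 5 enzymes were called higher, the added one being Cyp7b1 (log2 fold change 1.85, adjusted p = 0.0162 from edgeR), and 2029 of all genes were called higher and 2988 lower.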
